A study of Mus musculus with 10 samples.

Results

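The 42 genes described here are an interferon-stimulated gene module: RNA sensors, transcription factors, enzymes of ISG15 conjugation, antiviral effectors, interferon-induced GTPases, the PARP9 and DTX3L complex with PARP14, and a few further induced genes. They were chosen by name, and all 42 were present among the 17404 genes of the count table. They were read in long-term hematopoietic stem cells (LT-HSCs) sorted from mouse fetal livers at E14.5 (the day of embryonic development) and sequenced in bulk, 1 library per embryo. The 6 KO libraries are from Tnfrsf11aCre; Spi1f/f embryos, in which Cre expressed from the Tnfrsf11a locus of macrophage precursors deletes Spi1, the gene of the myeloid transcription factor PU.1, in those precursors and their progeny. The 4 WT libraries are from Tnfrsf11a+/+; Spi1f/f littermates, which carry the same floxed Spi1 alleles without Cre. The animals were on a C57BL/6 background. The model depletes fetal macrophages and is stated to leave the stem cells themselves unrecombined, so the comparison asks whether interferon-stimulated genes of LT-HSCs differ when the surrounding macrophages are reduced. The gate (CD150 and other surface markers) may also admit other early progenitors.

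Depth ranged from 5315435 to 30941726 counts on genes per library, and values are given as CPM, the counts of a library scaled to a common total with TMM factors, or, where levels of different genes are compared, as TPM, which are also divided by transcript length. As a look at the labels, Spi1 stood at 9.10 to 101 CPM in KO and 6.22 to 50.1 CPM in WT, which cannot check a deletion meant for another cell type, and Tnfrsf11a at 1.45 to 4.11 CPM in KO and 0.683 to 5.80 CPM in WT. The LT-HSC genes Kit, Mecom, Hlf and Procr were detected in every library, and the summed level of 13 stem and progenitor markers was 641 to 1956 CPM in KO and 598 to 1020.4 CPM in WT. Of these 13, 10 had an estimate above 0 and 3 were called higher in KO by edgeR: Mecom (log2 fold change 1.83), Hlf (1.84) and Cd34 (0.93), with a median of 1.05 over the list. Endothelial genes were also abundant: 10 of them, among them Stab2 and Lyve1, summed to 1348 to 9503 CPM in KO, highest in KO3, and to 313 to 5976 CPM in WT, lowest in WT1. Hepatoblast genes summed to 6806, 8850.1 and 6076 CPM in KO5, KO6 and WT3 and to at most 1443 CPM elsewhere. The 7 megakaryocyte markers summed to 248 to 3607 CPM in KO and 249.6 to 1237 CPM in WT, with 7 of 7 estimates above 0 and none past the edgeR test. The 6 erythroblast markers tested summed to 227 to 2166 CPM in KO and 218 to 6111 CPM in WT, highest in WT3, with 6 of 6 estimates below 0 and Epor called lower. Monocyte and granulocyte markers summed to 13.9 to 1343 CPM in KO and 6.60 to 2183 CPM in WT, highest in WT3 and KO5, and lymphocyte markers to 16.9 to 70.3 CPM in KO and 4.93 to 55.1 CPM in WT. The part of the stem and progenitor markers and of these other cell types in the values of the interferon-stimulated genes was not tested. In bulk libraries, fewer cells of a type and less RNA per cell cannot be told apart.

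Interferons are secreted proteins of antiviral defence. Type I interferons bind the receptor of IFNAR1 and IFNAR2, whose kinases JAK1 and TYK2 act on STAT2, which joins IRF9 in the complex ISGF3, which binds the interferon-stimulated response element (ISRE) in the promoters of its target genes. Interferon gamma signals through its own receptor and acts at the gamma-activated site (GAS), as in the promoter of Irf1. Many of the induced genes, such as the Ifitm family, are expressed in stem cells also without infection, and interferon signalling is known to act on stem cell emergence, quiescence and activation.

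Binding sites for these factors are the sequence feature by which interferon-stimulated genes are best known, so promoter windows of 8 of the genes are shown: the 3 that passed the test below (Irf1, Dtx3l and Xaf1), the 4 next by p-value, which all hold an ISRE (Irf2, Ifit3, Ifit1 and Oas1a), and Isg15, a classical target of ISGF3. Each window runs from 250 bases before to 50 bases after the gene start (RefSeq, GRCm38.p6), 5′ to 3′ on the strand of the gene. Capitals mark the ISRE, searched as GAAANNGAAA on both strands (it reads TTTCNNTTTC where it lies on the other strand), except in Irf1, where they mark the GAS, searched as TTCNNNGAA, which is the same on both strands. The window of Irf1 lies at chr11:53769764-53770063, plus strand, that of Dtx3l at chr16:35938978-35939277, minus strand, that of Xaf1 at chr11:72301379-72301678, plus strand and that of Irf2 at chr8:46739495-46739794, plus strand. The window of Ifit3 lies at chr19:34583279-34583578, plus strand, that of Ifit1 at chr19:34640639-34640938, plus strand, that of Oas1a at chr5:120907476-120907775, minus strand and that of Isg15 at chr4:156200769-156201068, minus strand.
Irf1: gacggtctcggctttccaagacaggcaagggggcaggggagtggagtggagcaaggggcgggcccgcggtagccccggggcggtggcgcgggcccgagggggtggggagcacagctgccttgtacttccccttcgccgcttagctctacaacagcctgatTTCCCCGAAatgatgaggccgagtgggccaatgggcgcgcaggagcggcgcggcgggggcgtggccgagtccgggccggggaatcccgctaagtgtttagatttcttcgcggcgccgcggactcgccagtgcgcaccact
Dtx3l: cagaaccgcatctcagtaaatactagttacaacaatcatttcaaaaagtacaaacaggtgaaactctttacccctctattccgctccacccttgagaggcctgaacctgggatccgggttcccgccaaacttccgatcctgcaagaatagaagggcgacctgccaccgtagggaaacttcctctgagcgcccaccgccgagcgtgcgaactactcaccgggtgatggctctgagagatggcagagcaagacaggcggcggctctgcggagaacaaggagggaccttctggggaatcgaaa
Xaf1: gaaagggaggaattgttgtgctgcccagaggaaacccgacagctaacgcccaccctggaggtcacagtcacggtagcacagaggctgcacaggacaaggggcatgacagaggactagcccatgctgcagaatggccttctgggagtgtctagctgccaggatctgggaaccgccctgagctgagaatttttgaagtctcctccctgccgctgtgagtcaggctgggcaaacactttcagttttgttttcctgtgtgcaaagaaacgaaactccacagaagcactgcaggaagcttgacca
Irf2: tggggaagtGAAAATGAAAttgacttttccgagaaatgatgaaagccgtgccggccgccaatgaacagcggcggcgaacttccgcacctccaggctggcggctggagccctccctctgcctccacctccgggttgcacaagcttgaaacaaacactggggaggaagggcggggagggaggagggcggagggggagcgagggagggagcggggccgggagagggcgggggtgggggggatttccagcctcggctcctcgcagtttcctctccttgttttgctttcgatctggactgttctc
Ifit3: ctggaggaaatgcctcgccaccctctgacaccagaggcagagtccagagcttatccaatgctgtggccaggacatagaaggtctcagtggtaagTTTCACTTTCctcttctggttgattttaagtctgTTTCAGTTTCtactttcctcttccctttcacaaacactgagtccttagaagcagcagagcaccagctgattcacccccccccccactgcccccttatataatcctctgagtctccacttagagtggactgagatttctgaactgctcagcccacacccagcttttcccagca
Ifit1: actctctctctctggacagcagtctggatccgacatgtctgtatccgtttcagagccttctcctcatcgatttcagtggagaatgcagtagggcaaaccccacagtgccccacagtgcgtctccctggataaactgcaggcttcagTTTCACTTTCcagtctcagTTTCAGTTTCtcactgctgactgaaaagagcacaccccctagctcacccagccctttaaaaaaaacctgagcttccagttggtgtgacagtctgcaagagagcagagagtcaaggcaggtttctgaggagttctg
Oas1a: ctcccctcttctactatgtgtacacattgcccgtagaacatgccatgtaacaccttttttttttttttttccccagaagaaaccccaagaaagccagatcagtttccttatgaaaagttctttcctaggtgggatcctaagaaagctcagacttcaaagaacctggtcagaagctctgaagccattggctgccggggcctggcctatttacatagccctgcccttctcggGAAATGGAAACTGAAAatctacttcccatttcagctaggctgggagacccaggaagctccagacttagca
Isg15: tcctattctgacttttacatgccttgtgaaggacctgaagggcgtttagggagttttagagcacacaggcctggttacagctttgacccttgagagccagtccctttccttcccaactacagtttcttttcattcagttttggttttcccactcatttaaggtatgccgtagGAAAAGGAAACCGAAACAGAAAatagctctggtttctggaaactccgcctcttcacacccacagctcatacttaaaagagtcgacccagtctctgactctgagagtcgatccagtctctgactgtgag

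The ISRE began 78 bases before the start of Isg15 and repeated there 3 times with overlap, began 104 and 85 bases before the start of Ifit1 and 156 and 122 bases before that of Ifit3, and lay 20 and 14 bases before that of Oas1a. In Irf2 the match began 241 bases before the start, and in Irf1 the GAS began 90 bases before it. Windows were matched for 33 of the 42 genes. The ISRE was found in 17 of these 33 (51.5%), against 3.99% of all 27025 genes with a window and 3.44% of all windows. A GAS was found in 11 of 33 (33.3%), against 9.55% of all genes and 8.30% of all windows, and 2 pairs of matches of the 2 motifs overlapped. Dtx3l and Xaf1 held neither set of letters in their window. The median log2 fold change between KO and WT was 0.27 for the 17 genes with an ISRE and 0.27 for the 16 without in the comparison described next. It was 0.54 for the 11 genes with a GAS, with 8 of 11 above 0, and 0.16 for the 22 without, with 14 of 22 above 0. These medians are descriptions, and their difference was not tested.

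By level per transcript length, the module was dominated by the Ifitm genes, which encode membrane proteins that restrict viral entry. Mean TPM over the 10 libraries was 1122 ± 487 (SD) for Ifitm2, 442 ± 322 for Ifitm1 and 399 ± 169 for Ifitm3, so these SDs leave the order of Ifitm1 and Ifitm3 unresolved. Next came Bst2, the tetherin that holds budding virus at the cell surface, at 150.3 ± 73.3 TPM and Irf3, the factor activated by RNA and DNA sensors, at 109 ± 25.97 TPM. Below these 5, 15 genes had a mean of 10 to 100 TPM, led by Xaf1 (82.9), 19 had 1 to 10 TPM, and Mx2 (0.787), Mx1 (0.546) and Zbp1 (0.401) were below 1 TPM. Ifitm1, Ifitm2 and Ifitm3 together made up 71.96% to 74.5% of the summed TPM of the 42 genes in KO, and 47.3%, 73.4%, 65.6% and 76.98% in WT1 to WT4. WT1, the library lowest in endothelial genes, thus stood apart with the smallest Ifitm share.

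**Figure D1:**
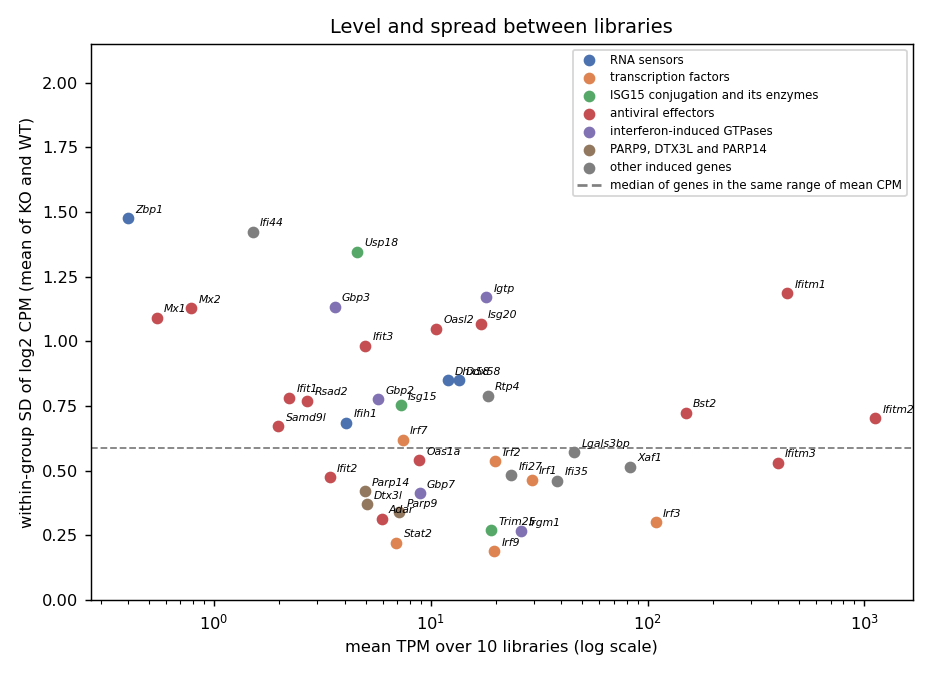
Mean TPM over the 10 libraries (x axis, log scale) against the SD of log2 CPM within groups, taken as the mean of the KO and the WT SD (y axis), with 1 point per gene coloured by role. Ifitm2, Ifitm1 and Ifitm3 lie at the right, and the points scatter on both sides of the dashed line, the median of 0.586 over genes in the same range of mean CPM.

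Between KO and WT, the module did not move in 1 direction. Irf1 and Dtx3l were higher in KO and Xaf1 was lower, and the other 39 genes did not pass the test (edgeR's quasi-likelihood test, Benjamini-Hochberg adjusted p below 0.1 over 16725 genes). The 2 genes higher are 4.76% of 42, where 1.32% of all genes tested were higher, and the gene lower is 2.38%, where 2.67% of all genes were lower (either direction: 7.14% against 3.99%). With so few genes called, nothing about the module as a whole is read from these shares. At an unadjusted p below 0.05, 6 of the 42 were higher (14.3%, against 8.6% of all genes) and 4 lower (9.52%, against 10.2%), shares on both sides of those of all genes. KO and WT libraries did not overlap in CPM for 4 of the 42 genes (9.52%: Irf1, Dtx3l, Stat2 and Mx2, all higher in KO). Of all 16725 genes tested, 482 did not overlap with KO higher and 582 with KO lower (6.36% in either direction). The estimate was above 0 for 27 of 42 genes and below 0 for 15, with a median log2 fold change of 0.26, beside 8884 of 16725 and a median of 0.062 over all genes tested. By DESeq2 with the fold-change threshold used in the study, 5 of the 42 passed (Irf1 and Dtx3l higher; Xaf1, Ifit1 and Ifit3 lower), with a background of 6.92% of the genes it tested.

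**Figure D2:**
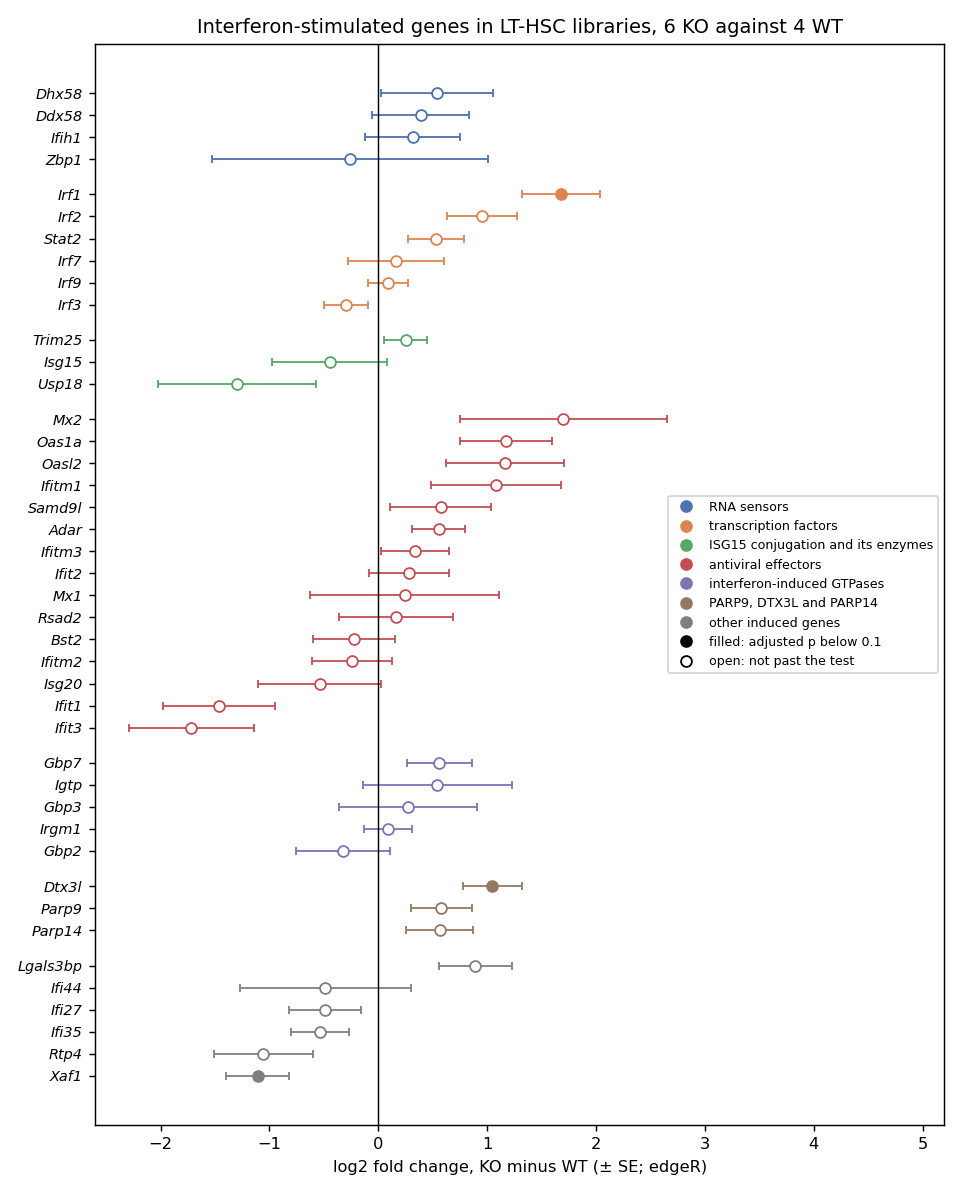
Log2 fold change of KO minus WT with its SE (x axis) for each of the 42 genes (y axis), in blocks by role, from the edgeR fit of 6 KO and 4 WT libraries. Filled points, Irf1, Dtx3l and Xaf1, passed an adjusted p of 0.1; open points did not, and they lie on both sides of 0.

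Among the 6 transcription factors, Irf1 was the gene that rose. Irf1, an early target of interferon gamma that itself activates further interferon-stimulated genes, is at chr11:53770014-53778374, plus strand (GRCm38). Its level was 53.1, 52, 38.7, 142, 110.1 and 69.8 CPM in KO1 to KO6 and 20.9, 24.3, 29.6 and 22.2 CPM in WT1 to WT4. Every KO library lay above every WT library, and KO4 and KO5 lay highest. The mean was 77.6 ± 40.1 CPM over the 6 KO libraries (± SD) and 24.3 ± 3.86 CPM over the 4 WT libraries, a 3.20-fold difference in the edgeR fit (log2 fold change 1.68 ± 0.36 (SE), adjusted p = 0.082). Irf2, which competes with IRF1 for the same sites, stood at 19.9 to 55 CPM in the 6 KO libraries (median 43.2) and 11.5, 21.5, 21.9 and 29.7 CPM in WT1 to WT4. In all, 5 of the 6 KO libraries exceeded all WT libraries and KO3 fell among them, and the difference did not pass the test (log2 fold change 0.95 ± 0.32 (SE), adjusted p = 0.14, edgeR). Stat2, the ISGF3 subunit, stood at 16.9 to 27.8 CPM in the 6 KO libraries (median 18.95) and 14.7, 12.9, 13.2 and 16.3 CPM in WT1 to WT4, without overlap of the groups but with the WT4 level close to the lowest KO library, KO3 (log2 fold change 0.53 ± 0.26 (SE), adjusted p = 0.29, edgeR).

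Irf9, the DNA-binding subunit of ISGF3, had the smallest spread of all 42 genes: 40.2 to 52.5 CPM in the 6 KO libraries (median 45.5) and 34.2, 42.95, 45.7 and 48.7 CPM in WT1 to WT4, with an SD of log2 CPM of 0.16 in KO and 0.22 in WT. Its groups overlapped over most of their range, and the log2 fold change was 0.088 ± 0.19 (SE; edgeR adjusted p = 0.84). Irf3, which needs no interferon for its expression, stood at 62.9 to 111 CPM in the 6 KO libraries (median 81.3) and 115, 106, 115 and 71.5 CPM in WT1 to WT4, and its groups overlapped (log2 fold change -0.30 ± 0.21 (SE), adjusted p = 0.47, edgeR). Irf7, the factor that amplifies type I interferon production, was at 4.44 to 22.4 CPM in KO and 6.83 to 13.98 CPM in WT, the WT range lying inside that of KO.

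Dtx3l, an E3 ubiquitin ligase that acts as a complex with PARP9, is at chr16:35926511-35939151, minus strand. It was measured at 39.8, 34.5, 19.6, 37.7, 29.9 and 33.3 CPM in KO1 to KO6 and 18.7, 15.2, 18.2 and 10.6 CPM in WT1 to WT4. All KO libraries exceeded all WT libraries, but KO3 lay just above WT1 and below the other 5. Means were 32.5 ± 7.18 CPM (SD, n = 6) and 15.7 ± 3.72 CPM (SD, n = 4), and the fit gave a 2.07-fold higher level in KO (log2 fold change 1.05 ± 0.27 (SE), adjusted p = 0.086, edgeR). Parp9 starts within Dtx3l on the opposite strand: the 2 genes share 458 exonic bases, and since the library protocol does not mark strand, reads from those bases cannot be assigned to one or the other. Parp9 stood at 15.8 to 32.6 CPM in the 6 KO libraries (median 22.6) and 15.2, 20.7, 12.3 and 12.9 CPM in WT1 to WT4 (log2 fold change 0.58 ± 0.28 (SE), adjusted p = 0.29, edgeR), and the groups overlapped through WT2. Parp14, a further PARP of the interferon response, stood at 18.5 to 26.5 CPM in the 6 KO libraries (median 24.1) and 9.33, 25.3, 11.2 and 16.7 CPM in WT1 to WT4, overlapping through WT2 (log2 fold change 0.56 ± 0.31 (SE), adjusted p = 0.35, edgeR). All 3 estimates were thus above 0, and that of Dtx3l passed the test.

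Xaf1, a proapoptotic partner of the caspase inhibitor XIAP, is at chr11:72301629-72313733, plus strand and was the gene that fell. It was measured at 37.8, 33.8, 62.01, 34.1, 68.6 and 48.5 CPM in KO1 to KO6 and 140.5, 69.1, 66.5 and 134 CPM in WT1 to WT4. WT1 and WT4 were about 2 times as high as WT2 and WT3, and KO5 lay between WT3 and WT2, so the groups overlapped. The means were 47.5 ± 14.95 CPM over the 6 KO libraries (± SD) and 103 ± 40.2 CPM over the 4 WT libraries, and WT was 2.16-fold higher in the edgeR fit (log2 fold change -1.11 ± 0.29 (SE), adjusted p = 0.090).

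The calls of these 3 genes depended on which libraries were included. Without KO3 each of them still passed, at an edgeR adjusted p of 0.049, 0.054 and 0.070 for Irf1, Dtx3l and Xaf1. Without KO1, KO2, KO4, KO5, KO6 or WT1, each taken out alone, none of the 3 passed, with adjusted p of 0.13 to 0.20 for Irf1, 0.14 to 0.21 for Dtx3l and 0.14 to 0.21 for Xaf1. In those 6 fits at most 1 gene of the whole table passed, and the unadjusted p was below 0.05 for 5 to 7 of the 42 genes with a positive and 3 to 4 with a negative estimate. Dtx3l was also lost without WT2 (adjusted p = 0.11) and without WT4 (0.11), and Xaf1 without WT4 (0.13), in the edgeR test. The log2 fold changes kept their sign over all 10 omissions, at 1.41 to 1.84 for Irf1, 0.90 to 1.18 for Dtx3l and -1.26 to -0.92 for Xaf1.

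**Figure D3:**
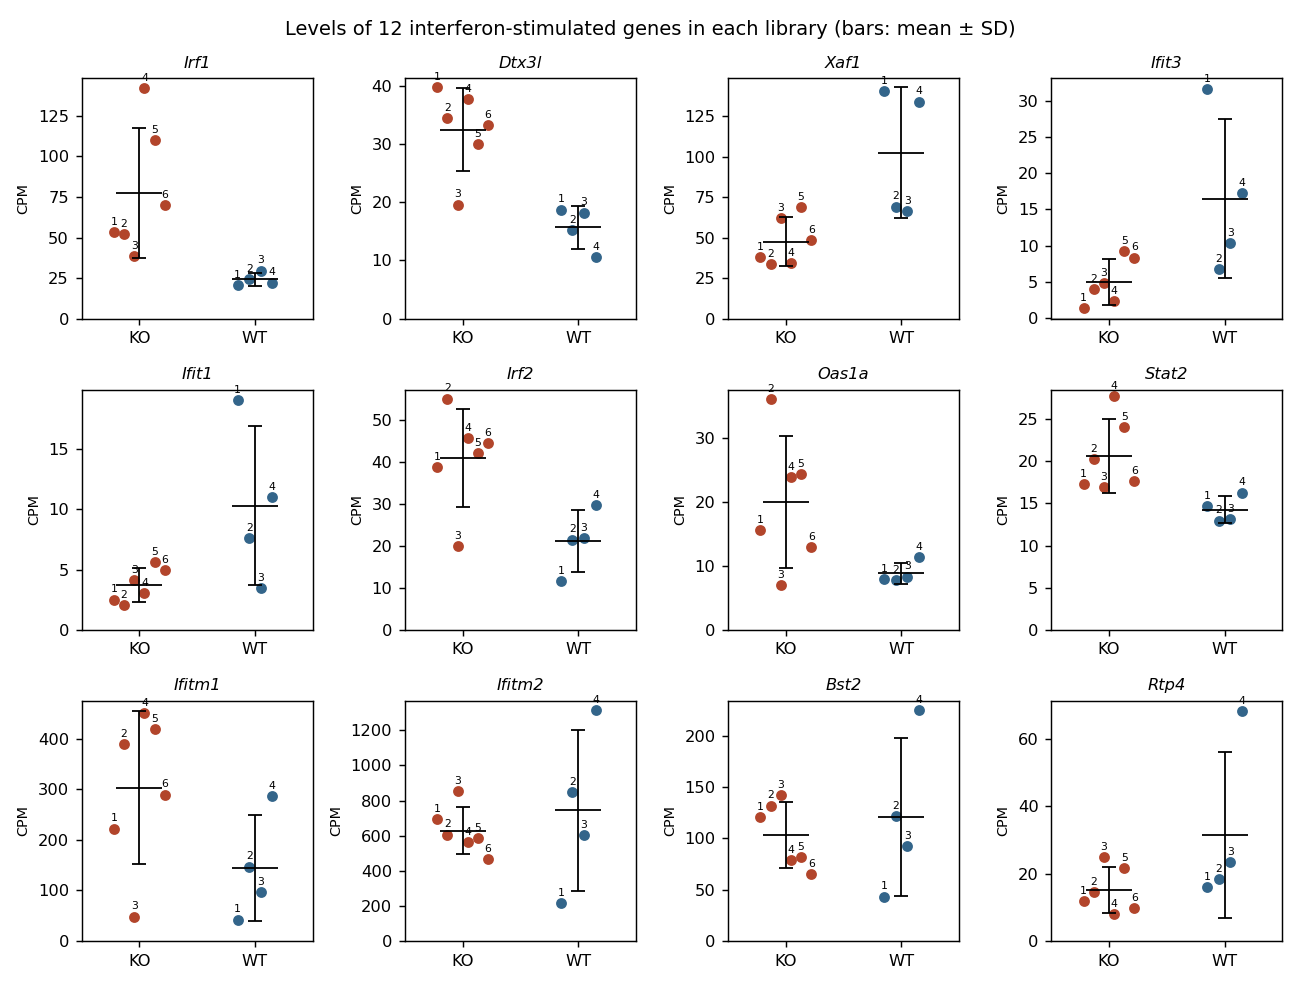
CPM of 12 of the genes in each library, KO in red and WT in blue, numbered by replicate, with the mean and SD of each group as black bars and a linear y axis per gene. KO and WT points separate for Irf1, Dtx3l and Stat2 and overlap in the other panels. WT1 or WT4 is the highest or the lowest library in every panel except Oas1a and Stat2.

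The other induced genes apart from Xaf1 did not pass the test. Rtp4, a chaperone-like protein of the type I response, stood at 8.01 to 24.9 CPM in the 6 KO libraries (median 13.2) and 16.1, 18.4, 23.4 and 68.4 CPM in WT1 to WT4: WT4 alone was far above the rest, and the other 3 WT libraries lay inside the KO range (log2 fold change -1.06 ± 0.45 (SE), adjusted p = 0.23, edgeR). Lgals3bp, a secreted galectin ligand, stood at 45.4 to 142 CPM in the 6 KO libraries (median 97.3) and 37.2, 47.6, 83.04 and 37.9 CPM in WT1 to WT4, with KO1 and KO3 in the range of WT (log2 fold change 0.89 ± 0.34 (SE), adjusted p = 0.19, edgeR). Ifi44 stood at 0.67 to 4.02 CPM in the 6 KO libraries (median 2.70) and 3.94, 0.177, 3.18 and 7.08 CPM in WT1 to WT4 and had one of the 3 widest spreads of genes with at least 1 CPM, with an SD of log2 CPM of 2.01 in WT (log2 fold change -0.49 ± 0.78 (SE), adjusted p = 0.79, edgeR). Ifi27 and Ifi35 had log2 fold changes of -0.49 ± 0.33 and -0.54 ± 0.27 (SE), and the KO range of each lay inside that of WT. Without WT4, the lowest library for Ifi35, that gene was called lower (log2 fold change -0.77, edgeR adjusted p = 0.093).

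None of the 15 antiviral effectors passed edgeR's test; at an unadjusted p below 0.05, Oas1a and Adar were higher and Ifit1 and Ifit3 lower, and the estimate was above 0 for 10 of 15. Ifit3 and Ifit1 encode proteins that bind viral RNA. Ifit3 was measured at 1.40, 3.95, 4.77, 2.32, 9.21 and 8.35 CPM in KO1 to KO6 and 31.6, 6.74, 10.3 and 17.3 CPM in WT1 to WT4, and Ifit1 at 2.50, 2.06, 4.12, 3.05, 5.63 and 4.93 CPM in KO1 to KO6 and 19.1, 7.63, 3.48 and 11.04 CPM in WT1 to WT4. WT1 was the highest library for both, and WT3 for Ifit1 and WT2 for Ifit3 lay inside the KO range. The log2 fold change was -1.72 ± 0.58 (SE) for Ifit3 (edgeR adjusted p = 0.14) and -1.47 ± 0.51 for Ifit1 (adjusted p = 0.16), and DESeq2 with the study's threshold called both lower (adjusted p = 0.083 and 0.087). Of the 31-base words in the transcripts of Ifit3, 61.8% also occur in its copy Ifit3b, so the split of reads between them is uncertain. Ifit3b itself stood at 0.122 to 4.21 CPM in KO and at 8.72, 0.71, 0.961 and 1.42 CPM in WT1 to WT4, highest in WT1 as well. Ifit2, the neighbour with the same role, had a log2 fold change of 0.28 ± 0.36 (SE).

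Oas1a, a 2′-5′ oligoadenylate synthetase that activates RNase L, stood at 6.93 to 36.04 CPM in the 6 KO libraries (median 19.7) and 7.89, 7.81, 8.28 and 11.3 CPM in WT1 to WT4, with KO3 below all WT libraries and the other 5 above them (log2 fold change 1.17 ± 0.43 (SE), adjusted p = 0.17, edgeR). Its transcripts share 68.7% of their 31-base words with Oas1g, which stood at 0.379 to 4.09 CPM in KO and 0.283 to 4.97 CPM in WT. Oasl2, of the same family, had an estimate of similar size (log2 fold change 1.17 ± 0.54 (SE), adjusted p = 0.27, edgeR). Adar, the enzyme that edits double-stranded RNA, stood at 28.9 to 56.1 CPM in the 6 KO libraries (median 33.7) and 22.9, 33.5, 24.9 and 20.8 CPM in WT1 to WT4: 3 of the 6 KO libraries lay above WT2, the highest of WT (log2 fold change 0.55 ± 0.24 (SE), adjusted p = 0.25, edgeR). In the annotation it overlaps Chrnb2, which holds 15.4% of its words.

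Of the Ifitm genes, Ifitm1 stood at 222, 389, 47.98, 451, 419 and 289 CPM in KO1 to KO6 and 42.1, 147, 97.2 and 287 CPM in WT1 to WT4. Among KO libraries KO3 was far lower than the others, at the level of WT1, and WT4 reached the middle of KO (log2 fold change 1.08 ± 0.60 (SE), adjusted p = 0.36, edgeR). Ifitm2 was measured at 466 to 856 CPM in the 6 KO libraries (median 595) and 216, 847, 602 and 1314 CPM in WT1 to WT4, and Ifitm3 at 201 to 338 CPM in the 6 KO libraries (median 260.1) and 142, 170.4, 133 and 406 CPM in WT1 to WT4. For both genes the WT libraries spanned the range of KO, with WT4 highest, and the log2 fold changes were -0.24 ± 0.37 and 0.33 ± 0.31 (SE). Without WT4, Ifitm3 did pass (log2 fold change 0.85, edgeR adjusted p = 0.090) and the estimate of Ifitm2 turned to 0.18. These transcripts are short and alike: 55.5% of the words of Ifitm2, 20.5% of Ifitm3 and 11.6% of Ifitm1 occur in other annotated genes, pseudogenes included. Bst2 stood at 65.3 to 142 CPM in the 6 KO libraries (median 101) and 43.2, 122, 92.3 and 225 CPM in WT1 to WT4, again lowest in WT1 and highest in WT4 (log2 fold change -0.22 ± 0.38 (SE), adjusted p = 0.80, edgeR).

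The dynamin-like GTPases of the Mx pair were low, each with a mean below 1 TPM. Mx2 stood at 1.34 to 4.11 CPM in the 6 KO libraries (median 1.71) and 1.06, 1.33, 0.148 and 0 CPM in WT1 to WT4, without overlap, but the lowest KO library, KO1, was all but level with WT2 (log2 fold change 1.70 ± 0.95 (SE), adjusted p = 0.36, edgeR). Mx2 is annotated as a polymorphic pseudogene in the reference. Mx1 was at 0.319 to 2.53 CPM in KO and 0.455 to 2.41 CPM in WT. Rsad2 (viperin), Isg20 and Samd9l had log2 fold changes of 0.16 ± 0.53, -0.54 ± 0.57 and 0.57 ± 0.47 (SE), and their groups overlapped.

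No RNA sensor, ISG15 gene or interferon-induced GTPase passed edgeR's test or that of DESeq2, and none of these 12 had an unadjusted p below 0.05 in edgeR. The cytosolic sensors Ddx58 (RIG-I), Ifih1 (MDA5) and Dhx58 (LGP2) had log2 fold changes of 0.39 ± 0.45, 0.31 ± 0.43 and 0.54 ± 0.51 (SE), and the sensor of Z-form nucleic acid Zbp1 was at no more than 1.58 CPM in any library. Isg15, the ubiquitin-like modifier, was at 2.004 to 7.59 CPM in the 6 KO libraries (median 4.99) and 9.71, 3.19, 8.80 and 3.68 CPM in WT1 to WT4 (log2 fold change -0.44 ± 0.53 (SE), adjusted p = 0.70, edgeR). Usp18, the protease that removes ISG15 and also restrains the type I receptor, had one of the 3 widest spreads: 2.50, 2.85, 4.12, 1.96, 9.83 and 11.4 CPM in KO1 to KO6 and 15.8, 4.26, 2.44 and 31.3 CPM in WT1 to WT4. WT4 and WT1 were the highest and WT3 lay among the lowest KO libraries (log2 fold change -1.30 ± 0.72 (SE), adjusted p = 0.36, edgeR). Trim25, the ligase that acts on RIG-I and ISG15, was at 90.5 to 135 CPM in KO and 76.6 to 119 CPM in WT. Among the GTPases that act on intracellular pathogens, Irgm1 was one of the 3 steadiest genes, at 37.7 to 78.6 CPM in the 6 KO libraries (median 58.01) and 59.99, 48.9, 60.1 and 47.98 CPM in WT1 to WT4 (log2 fold change 0.089 ± 0.22 (SE), adjusted p = 0.86, edgeR). Igtp split the KO libraries instead: 9.57, 21.5, 5.14, 71.3, 76.8 and 58.3 CPM in KO1 to KO6, with 25.8, 38.1, 34.7 and 12.7 CPM in WT1 to WT4. KO4 to KO6 lay above all WT libraries and KO1 and KO3 below them (log2 fold change 0.54 ± 0.68 (SE), adjusted p = 0.73, edgeR); 15.9% of its words also occur in the overlapping gene Irgm2. The megakaryocyte markers split the KO libraries alike, with summed levels of 421, 423 and 248 CPM in KO1 to KO3 and 2553, 2462 and 3607 CPM in KO4 to KO6. Within WT they did not follow Igtp: the sums were 249.6, 979.6, 686 and 1237 CPM in WT1 to WT4, highest in WT4, where Igtp was lowest. The part of megakaryocyte content in the level of Igtp was not tested. The guanylate-binding proteins Gbp2, Gbp3 and Gbp7 had log2 fold changes of -0.32 ± 0.43, 0.27 ± 0.63 and 0.56 ± 0.30 (SE).

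Spread between libraries was wide within both groups, and for most of the genes wider in WT. The SD of log2 CPM had a median over the 42 genes of 0.56 in KO and 0.73 in WT, beside 0.45 and 0.69 over the 13778 genes in the same range of mean CPM. Against the 1000 genes nearest in mean, the spread of a member lay at a median percentile of 56.5, and for 22 of 42 it was above the middle. Ifitm1, at percentile 96.5, and Igtp, at 95.4, lay near the top for their level, and Stat2 (1.80) and Irf9 (2.70) near the bottom. WT varied more than KO in 28 of 42 genes and in 75.1% of the genes in the range. KO2 was the highest of all 10 libraries for 11 of the 42 genes, WT4 for 9, KO4 for 8 and WT1 for 6, while WT1 was the lowest for 12, and KO3, WT2 and WT4 for 6 each. KO2 and WT4 were the shallowest libraries, with 5315435 and 7633446 counts. WT1 and WT4 thus held many of the highest and also many of the lowest values. The median deviation of the 42 genes from their means over libraries was -0.050, 0.33, -0.27, 0.35, 0.31 and 0.12 on the log2 scale in KO1 to KO6 and -0.29, -0.21, -0.31 and 0.00037 in WT1 to WT4, so the 2 groups overlapped: KO1 and KO3 lay in the range of WT.

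**Figure D4:**
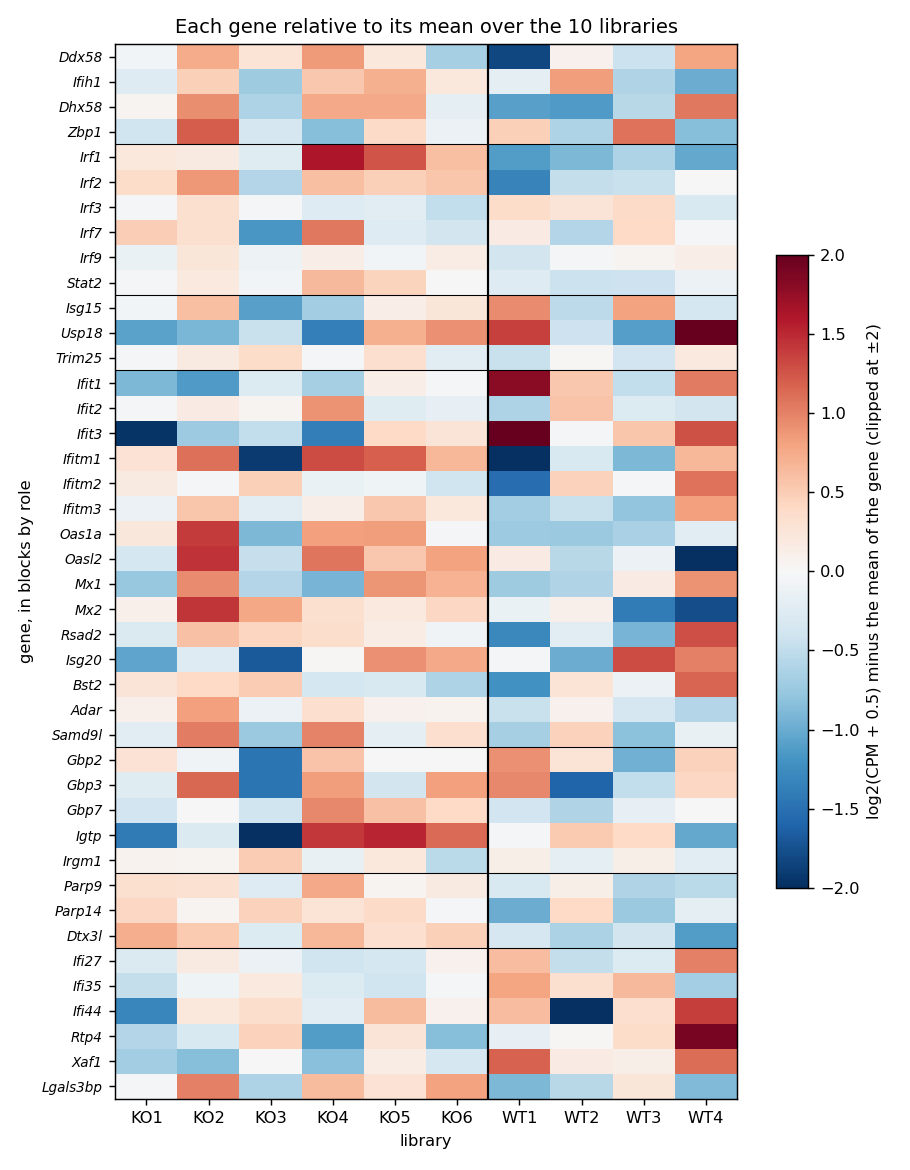
Log2(CPM + 0.5) of each gene minus its mean over the 10 libraries (colour, red above and blue below, clipped at ±2), with genes as rows in blocks by role and libraries as columns, KO left of the vertical line. Few rows change colour at the line; Irf1 and Dtx3l do apart from KO3, and within WT1 and WT4 strong red and strong blue cells stand side by side.

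Of the 113 other genes of the interferon pathway in the table, 112 were tested, 5 were higher and 3 lower in KO (4.46% and 2.68%, against 1.32% and 2.67% of all genes), and the median log2 fold change was 0.30. At an unadjusted p below 0.05 in edgeR, 19 of the 112 were higher (17.0%, against 8.6% of all genes) and 3 lower (2.68%, against 10.2%). The list was chosen with earlier results of these data known, so nothing about the pathway as a whole is read from these shares. The ligands were all but silent in the sorted cells: of 20 interferon genes with annotated transcripts, 16 had an estimated count of 0 in every library, Ifng among them, and the largest estimate was 16, for Ifnab in KO5. None of the 4 receptor chains of type I and type II interferon passed edgeR's test or that of DESeq2. Ifnar1 stood at 75.1 to 148 CPM in the 6 KO libraries (median 118) and 57.7, 95.7, 106 and 96.2 CPM in WT1 to WT4 (log2 fold change 0.37 ± 0.23 (SE), adjusted p = 0.40, edgeR). Ifnar2 stood at 38.5 to 57.6 CPM in the 6 KO libraries (median 41.4) and 54, 42.4, 39.7 and 44.7 CPM in WT1 to WT4 (log2 fold change -0.044 ± 0.19 (SE), adjusted p = 0.93, edgeR). The type I receptor chains were thus detected in all libraries at levels that overlapped. Ifngr1 stood at 86.3 to 136 CPM in the 6 KO libraries (median 119) and 231, 115, 124 and 45.1 CPM in WT1 to WT4, the highest and the lowest library both in WT (log2 fold change -0.15 ± 0.34 (SE), adjusted p = 0.86, edgeR). Ifngr2 stood at 31.4 to 78.2 CPM in the 6 KO libraries (median 55.4) and 13.9, 63.3, 59.5 and 42.6 CPM in WT1 to WT4, lowest in WT1 (log2 fold change 0.32 ± 0.38 (SE), adjusted p = 0.70, edgeR).

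The kinases and STATs include 1 call. Jak1 stood at 260.1 to 837 CPM in the 6 KO libraries (median 469) and 152, 465, 374 and 794 CPM in WT1 to WT4, with WT1 lowest and KO3 highest (log2 fold change 0.18 ± 0.40 (SE), adjusted p = 0.85, edgeR). Tyk2 stood at 28.3 to 64.4 CPM in the 6 KO libraries (median 52.8) and 37.2, 41.4, 47.99 and 31.7 CPM in WT1 to WT4 (log2 fold change 0.36 ± 0.26 (SE), adjusted p = 0.49, edgeR). Neither passed the test. Stat3, which serves cytokines of the IL-6 family more than interferons, rose: it stood at 159 to 230.5 CPM in the 6 KO libraries (median 194) and 99.05, 151, 107 and 118 CPM in WT1 to WT4, without overlap (log2 fold change 0.72 ± 0.19 (SE), adjusted p = 0.084, edgeR). Socs3, its feedback inhibitor, also rose, at 22.6 to 74.8 CPM in the 6 KO libraries (median 32.03) and 0.379, 8.78, 8.87 and 8.49 CPM in WT1 to WT4 (log2 fold change 2.48 ± 0.66 (SE), adjusted p = 0.091, edgeR). All KO libraries exceeded WT, and WT1 held next to none of its RNA. Traf3, an adaptor between the sensors and the kinases of IRF3, stood at 20.8 to 33.2 CPM in the 6 KO libraries (median 28.2) and 7.66, 11.6, 13.1 and 1.98 CPM in WT1 to WT4, without overlap, and rose too (log2 fold change 1.66 ± 0.43 (SE), adjusted p = 0.086, edgeR).

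Of 73 further interferon-stimulated genes tested, 2 rose and 3 fell. Ifi30, a lysosomal thiol reductase of antigen processing, stood at 10.02 to 21.5 CPM in the 6 KO libraries (median 18.6) and 121, 28.8, 54.6 and 36.1 CPM in WT1 to WT4, all KO libraries below all WT libraries (log2 fold change -1.80 ± 0.37 (SE), adjusted p = 0.082, edgeR). Without WT1, which was highest for Ifi30, the log2 fold change was -1.21 (edgeR adjusted p = 0.16). Cmpk2, a mitochondrial nucleotide kinase whose gene neighbours Rsad2, stood at 4.88 to 16.4 CPM in the 6 KO libraries (median 12) and 40.04, 17.7, 28.1 and 34.2 CPM in WT1 to WT4, again without overlap (log2 fold change -1.38 ± 0.34 (SE), adjusted p = 0.083, edgeR). Slfn5, of the Schlafen family, stood at 19.4 to 35.8 CPM in the 6 KO libraries (median 25.2) and 69.5, 35.3, 38.4 and 56.9 CPM in WT1 to WT4, with KO3 between WT2 and WT3 (log2 fold change -0.91 ± 0.25 (SE), adjusted p = 0.091, edgeR). The 2 genes called higher were scarce in WT. Oas1c, a further gene of the oligoadenylate synthetase cluster, stood at 1.08 to 8.54 CPM in the 6 KO libraries (median 4.84) and 0.152, 0, 0.739 and 0 CPM in WT1 to WT4 (log2 fold change 4.39 ± 1.11 (SE), adjusted p = 0.084, edgeR), and Nlrc5, the transactivator of MHC class I genes, at 0.542 to 6.64 CPM in the 6 KO libraries (median 3) and 0.455, 0.266, 0.148 and 0 CPM in WT1 to WT4 (log2 fold change 3.73 ± 1.02 (SE), adjusted p = 0.091, edgeR). Fold changes that large against WT libraries at or near 0 depend on the prior count and are not read as sizes. Like those of the 42 genes, the 8 calls among the other pathway genes were all lost without KO1, KO2, KO4, KO5, KO6 or WT1, each taken out alone (0 called by edgeR). There were 9 higher and 3 lower without KO3, 3 and 3 without WT2, 4 and 2 without WT3, and 3 and 1 without WT4.

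Transcript length moved with the fold changes. The 27 members with an estimate above 0 had a median transcript length of 2265 bases, and the 15 below 0 one of 1153 bases. With an offset that removes the trend of each library with transcript length, the median of all genes shifted from 0.062 to -0.17 and that of the 42 genes from 0.26 to -0.046, and 20 of 42 estimates were above 0. Relative to all genes the members then stood at 0.12, beside 0.20 without the offset. Irf1 kept its call (log2 fold change 1.45, edgeR adjusted p = 0.078), whereas Dtx3l, one of the longest transcripts, went to 0.60 (adjusted p = 0.28) and Xaf1, a short one, to -1.02 (adjusted p = 0.11). Of the other pathway genes called, Oas1c (edgeR adjusted p = 0.081), Ifi30, Cmpk2 and Slfn5 (0.076 each) kept their calls. Stat3 went to a log2 fold change of 0.38 (edgeR adjusted p = 0.33) and lost its call. Traf3 (edgeR adjusted p = 0.16), Socs3 (0.11) and Nlrc5 (0.11) lost theirs too. Over all genes the calls under this offset were 43 higher and 439 lower, against 221 and 446 without it. With the level of Xist as a covariate, which tracks the sex of the embryo, edgeR called 0 of the 42 genes and 0 of all genes; at an unadjusted p below 0.05, 5 members were higher and 3 lower. The log2 fold change was then 1.12 for Irf1, 0.86 for Dtx3l and -1.12 for Xaf1.

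**Figure D5:**
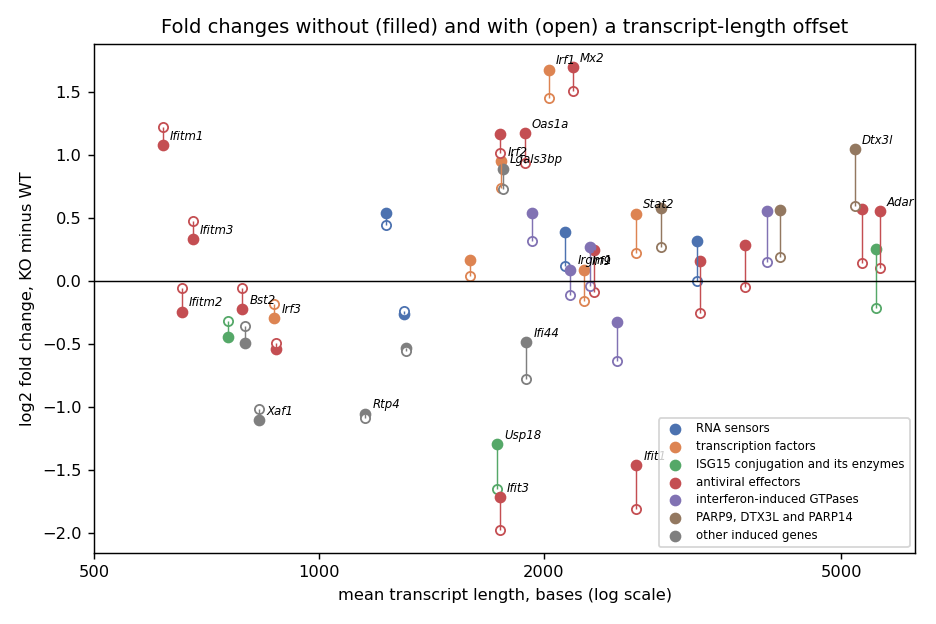
Log2 fold change of KO minus WT (y axis) against mean transcript length (x axis, log scale) for the 42 genes, filled without and open with an offset for the trend of counts with transcript length, each pair joined by a line. The offset lowers the estimates of long transcripts such as Dtx3l and Adar and raises those of short ones such as Ifitm1, while Irf1 stays near the top.

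Markers of cells that are themselves rich in interferon-stimulated transcripts were read in the same libraries. The 14 macrophage markers in the table summed to 219.8 to 925 CPM in KO and 109 to 721 CPM in WT, with 11 of 14 estimates below 0, but most of that sum was Mrc1 and Vcam1, which endothelium also expresses. Marco, the marker that passed the test, had 0 counts in every KO library and 3.41 to 14.3 CPM in WT. Timd4 and Clec4f were at or near 0 in most libraries of both groups. Adgre1 (F4/80) stood at 0.0609 to 11.8 CPM in KO and at 0.228, 3.02, 40.7 and 0.142 CPM in WT1 to WT4. Other markers of the list, among them Csf1r, C1qb, Cd68 and Siglec1, were detected in every library. Csf1r stood at 5.253 to 34.45 CPM in KO and 13.88 to 76.16 CPM in WT. C1qb stood at 23.27 to 55.04 CPM in KO and at 7.508, 66.64, 63.81 and 79.96 CPM in WT1 to WT4. WT3 held the most Adgre1, at 40.7 CPM, and the most Csf1r. WT3, also highest in the sums of erythroblast and of monocyte and granulocyte markers, was the highest of the 10 libraries for 2 of the 42 interferon-stimulated genes. The part of any of these cells in that count was not tested. Of plasmacytoid dendritic cells, the main producers of type I interferon, the markers Siglech, Klk1 and Cox6a2 were at no more than 1.90 CPM in any library. Ccr9 stood at 1.27 to 3.65 CPM in KO and 0.148 to 1.07 CPM in WT, without overlap (log2 fold change 1.59, edgeR adjusted p = 0.28). The 7 markers on that list summed to 188 to 515 CPM in KO and 132 to 483 CPM in WT, almost wholly from Tcf4, Irf8 and the member Bst2. Of their estimates 5 were above 0 and 2 below, and none passed the test. KO3, the library highest in endothelial genes and lowest of KO in stem and progenitor markers, was the lowest KO library for 21 of the 42 genes, among them Irf1, Irf2, Stat2, Dtx3l, Oas1a and Ifitm1. Without KO3, edgeR called 5 members higher (Irf1, Dtx3l, Irf2, Oas1a and Lgals3bp) and 1 lower (Xaf1). Without WT3, it called 3 higher (Irf1, Dtx3l and Lgals3bp) and 1 lower (Xaf1). Whether the cell content of these libraries bears on those values was not tested.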

How the data were processed

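LT-HSCs from E14.5 fetal livers (6 KO, 4 WT) were read from SmartSeq2 libraries. The authors sequenced them single-end with 75-base reads, made reads with bcl2fastq 2.20 and quantified transcripts of Gencode vM16 (GRCm38, mm10) with Kallisto 0.44.0. Per transcript they deposited estimated counts, not normalized, and TPM, scaled for length and depth, and per gene a table of whole-number counts summed by symbol, not normalized. For all 42 genes the sums of the deposited estimated counts lay within 1.5 counts of the table. Transcript length was deposited too.

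Here, counts of 16725 genes with at least 11 in total were fitted with edgeR 4.0.16 (R 4.3.3; TMM, glmQLFit with robust estimation, glmQLFTest, Benjamini-Hochberg, adjusted p below 0.1), with limma 3.58.1, and the study's DESeq2 test (version 1.42.0, log2 fold-change threshold 0.1) as an alternative. SEs are log2 fold changes divided by the square root of F. Spread is the SD of log2 CPM with a prior count of 2. TPM was summed over the transcripts of a gene. Positions and transcripts came from Gencode vM21 on the same build, and promoters from RefSeq. Depth was 5315435 to 30941726 counts per library; reads carry no molecular identifiers. On simulated data the edgeR fit called, with the right sign, 11 of 100 genes with a true absolute log2 fold change of 1. It called 80 of 100 with one of 2, and 7 of 16086 unchanged genes. The changed genes were drawn from those above a minimum mean CPM, so this recovery does not cover scarce genes such as Zbp1, Mx1 and Mx2. A gene that did not pass is therefore not shown to be unchanged.

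Named genes were those past the test, the smallest p until 10 were named, the 5 highest by TPM, the 3 widest and 3 narrowest spreads above a mean of 1 CPM, and those without overlap; of other pathway genes, those past the test plus the receptor chains, Jak1 and Tyk2; a further gene of that rule is not reported here. The members and lists were chosen with earlier results of these data known. Replicates are separate embryos per the study; their numbers are names given in the order of the records. Alternatives were another scaling, filter, threshold and tool, no robust estimation, an Xist covariate, a length offset (loess, span 0.3), for the spread a prior count of 0.5, and leaving out each library.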

Additional observations from a re-analysis of the deposited data

Results flagged for a closer look

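Among the 35 named genes, 1 library lay far from the rest of its group in 6 of 70 tests for a single outlying value (Dixon's criterion, which chance passes in about 1 in 20 groups). In WT4, Ifitm3 stood at 406 CPM, where the next WT library had 170.4, Rtp4 at 68.4 CPM, where the next had 23.4, and Oas1a at 11.3 CPM, where the next had 8.28. Socs3 stood at 74.8 CPM in KO4, above 34.7 in the next KO library, and at 0.379 CPM in WT1, below 8.49 in the next WT library. Ifnar2 stood at 57.6 CPM in KO5, above 45.2 in the next KO library.

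Outside the gene table, 2 interferon ligands had transcript estimates above those of WT, which were 0: Ifnb1, with an estimated count of 4 in KO4, and Ifnk, with 4 in KO1. Each was seen in a single library of the 10, at a count close to the limit of 3 that a count of 0 allows.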

How the results depend on the processing

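Counts of calls varied with the settings. Against 2 members higher and 1 lower, DESeq2 without a fold-change threshold called 4 and 3, DESeq2 with the threshold 2 and 3, the transcript-length offset 1 and 0, and the Xist covariate and an adjusted p below 0.05 both 0 and 0. Leaving out 1 library gave 0 to 5 members higher and 0 to 1 lower. Against 5 other pathway genes higher and 3 lower, the same settings gave 16, 8, 1, 0 and 0 higher. The 3 lower genes, Ifi30, Cmpk2 and Slfn5, kept their calls in both DESeq2 settings and with the length offset. None was called lower under the Xist covariate or the stricter threshold. Leaving out 1 library gave 0 to 9 higher and 0 to 3 lower. Over all genes DESeq2 called 998 higher and 1145 lower without and 585 and 551 with its threshold, against 221 and 446 by edgeR. The median log2 fold change of the members was 0.15 to 0.36 over the omissions and -0.046 with the length offset, where all genes shifted too. Their median spread was 0.55 to 0.70 over the omissions. The cause of these differences was not tested.

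Of 665 pairs of a named gene and an alternative, 533 kept direction and side of the threshold, 108 lost a call, 11 gained one and 13 turned direction, none of these in a gene that had passed. The estimates that turned were those of Irf9 (-0.16 with the length offset, -0.0071 to 0.17 over the omissions), Irgm1 (-0.11, and -0.020 to 0.19), Jak1 (-0.23, and -0.11 to 0.61) and Bst2 (0.097 with the Xist covariate, and -0.50 to 0.27), and over the omissions Ifitm2 (-0.55 to 0.18), Ifi44 (-0.89 to 0.065), Ifnar2 (-0.10 to 0.053) and Ifngr1 (-0.43 to 0.30). No paired analysis was possible because the labels tie no KO library to a WT library. Depth limits most the genes with a mean below 1 TPM, which were Zbp1, Mx1 and Mx2.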
